A study of Mus musculus with 8 samples.

Results

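The comparison set the first short hairpin RNA against Ybx1 (sh1Ybx1) beside the second (sh2Ybx1), across the genes counted in 2 RNA-sequencing libraries of each. These 4 libraries are part of 8 in the series. The other 4 came from cells with a non-targeting hairpin (shNT) and served here only as a level of reference. BaF3 is an established mouse line of early B-lineage origin whose growth ordinarily requires the cytokine IL-3. All 3 groups carried Jak2 with the V617F substitution, which leaves this cytokine-receptor kinase active without its ligand, so the groups differ by label only in the hairpin. The sources used here do not give the hairpin sequences, the time between transduction and harvest, or whether a line was a clone or a pool. Nor do the labels say if both libraries of a hairpin were grown apart; the p-values therefore reflect the spread of these libraries, which may be technical.

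YBX1 (Y-box binding protein 1) packages mRNA in the cytoplasm, affects its translation and stability, and has roles in splicing and transcription. A short hairpin RNA is cut to a small guide RNA that Argonaute proteins use to find and degrade matching transcripts. Knockdown studies often run more than 1 hairpin per gene, so that transcripts which respond alike to both can be separated from transcripts that do not.

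Of 13588 genes listed in the count table, 13258 had enough counts in the 4 hairpin libraries to be tested. Total counts were 22779437 and 23217610 in the sh1Ybx1 libraries and 23041869 and 26464953 in the sh2Ybx1 libraries, against 26093847 to 37549926 in the shNT libraries. The biological coefficient of variation, the spread between libraries of a group beyond counting noise, was 0.0758 for sh1Ybx1 and 0.0614 for sh2Ybx1, against 0.315 for shNT. The first principal component of the 4 hairpin libraries held 80.8% of their variance, with the sh1Ybx1 libraries at -32.8 and -30.4 and the sh2Ybx1 libraries at 32.8 and 30.4. Levels are given as CPM, each count divided by its library's total with TMM factors over all 8 libraries. A positive log2 fold change means higher in sh1Ybx1, and a gene was called where edgeR's quasi-likelihood test on the 4 libraries gave a Benjamini-Hochberg adjusted p under 0.05.

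Ybx1 itself (ENSMUSG00000028639, chr4:119277981-119294604 on the minus strand, GRCm38, GENCODE M21) checks the labels. It stood at 130 and 143 CPM in the sh1Ybx1 libraries and at 178 and 217 CPM in the sh2Ybx1 libraries, against 1731, 1631, 1607 and 1731 CPM in the shNT libraries. Both hairpins lowered Ybx1, to 8.14% of the shNT mean with sh1Ybx1 and to 11.8% with sh2Ybx1. The hairpin groups did not overlap, and Ybx1 was lower in sh1Ybx1 (log2 fold change -0.53, SE 0.102, edgeR adjusted p 1.06e-04). An exact two-sided permutation test of this single gene gave p = 0.33, the smallest that the 6 arrangements of 2 against 2 libraries allow. The difference did not pass the threshold where the spread of all 8 libraries was pooled (log2 fold change -0.54, edgeR adjusted p 0.225).

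The 2 hairpins left the cells with expression profiles that differed across a large share of genes, mostly by modest amounts. Of 13258 genes, 5620 were called (42.4%), with 2959 higher (22.3%) and 2661 lower (20.1%) in sh1Ybx1. Most of these differences were small, since 3367 of the called genes differed by less than 1.5-fold and the median size of the log2 fold change over called genes was 0.49. A difference of at least 2-fold was called for 852 genes (6.43%), 535 of them higher (4.04%) and 317 lower (2.39%) in sh1Ybx1. At 4-fold or more there were 133 genes, 95 higher and 38 lower in sh1Ybx1. Both sh1Ybx1 libraries lay beyond both sh2Ybx1 libraries for 9403 genes (70.9%). With 2 against 2 libraries, a gene without a difference would be separated in this way with a probability of 0.33. Genes share libraries, so the 70.9% was not tested against that rate. Of the called genes, 27 had overlapping libraries.

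The count of calls rests on the close agreement of the libraries within each hairpin. In a fit of 3 group means over all 8 libraries, where the wider spread of the shNT libraries entered the estimate, 71 of 13552 genes were called. All 71 were also called in the 4-library fit, and they made up 0.536% of the 13258 genes tested there. The authors' deposited TPM values gave no call at all with limma (smallest adjusted p 0.111, with 1836 of 13221 genes at an unadjusted p under 0.05, against 6611 in the edgeR fit of the counts). Those TPM values varied more within a hairpin than the counts did. Of the 848 genes called at 2-fold or more that had TPM values, 714 had the same direction in TPM and 78 the opposite. For the 376 of them with a TPM of at least 5 in the higher hairpin, 373 had the same direction. The TPM values are of the same libraries, so this is no independent check.

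**Figure D1:**
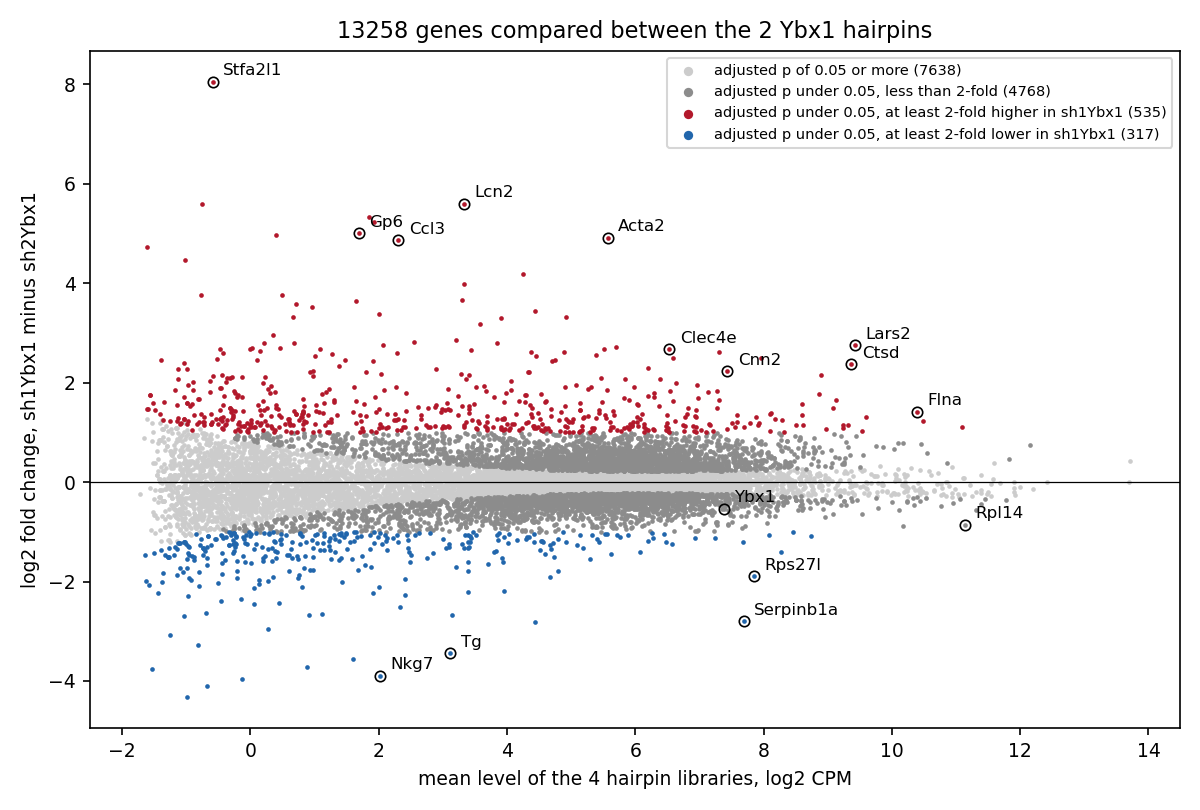
Log2 fold change, sh1Ybx1 minus sh2Ybx1 (vertical axis), against the mean level of the 4 hairpin libraries in log2 CPM (horizontal axis), 1 point per gene, 13258 genes. Colours mark the 535 genes called at least 2-fold higher and the 317 called at least 2-fold lower in sh1Ybx1, and circles mark genes named in the text, from Stfa2l1 at the top to Nkg7 near the bottom.

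Several of the 12 genes with the highest fold changes are known from neutrophils and macrophages. They include the secreted iron-sequestering protein Lcn2, the stefins Stfa2l1 and Stfa1, which are cysteine protease inhibitors, the chemokines Ccl3 and Ccl6, and the receptors Lilra6, Pirb and Ptafr. Acta2, the smooth muscle actin, is not of this kind. Lcn2 stood at 20.1 and 19.1 CPM in sh1Ybx1 and at 0.371 and 0.426 CPM in sh2Ybx1, against 0.601 to 3.27 CPM in shNT (log2 fold change 5.60, SE 0.213, edgeR adjusted p 3.65e-18). Acta2 stood at 82.6 and 101 CPM in sh1Ybx1 and at 3.22 and 2.88 CPM in sh2Ybx1, against 1.81 to 5.28 CPM in shNT (log2 fold change 4.92, SE 0.131, edgeR adjusted p 5.90e-22). The sh1Ybx1 libraries were far above the shNT range for both genes, while the sh2Ybx1 libraries lay just below it for Lcn2 and inside it for Acta2.

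Among the chemokines, which draw leukocytes along a gradient, Ccl3 had 8.85 and 10.3 CPM in sh1Ybx1, 0.371 and 0.284 CPM in sh2Ybx1 and 0.0530 to 0.196 CPM in shNT (log2 fold change 4.86, SE 0.258). Ccl6 had 63.8 and 45.8 CPM in sh1Ybx1, 4.21 and 6.71 CPM in sh2Ybx1 and 0.407 to 1.84 CPM in shNT (log2 fold change 3.31, SE 0.155). Both chemokine genes were above the shNT range with either hairpin, and higher with sh1Ybx1. Of the immunoglobulin-like receptors of myeloid cells, Lilra6 had 40.2 and 32.1 CPM in sh1Ybx1, 1.81 and 2.13 CPM in sh2Ybx1 and at most 0.434 CPM in shNT (log2 fold change 4.19, SE 0.156). Pirb, an inhibitory member of this family, had 25.3 and 17.8 CPM in sh1Ybx1, 2.19 and 2.56 CPM in sh2Ybx1 and 0.318 to 1.54 CPM in shNT (log2 fold change 3.18, SE 0.176). These receptors form a cluster of close paralogs on chromosome 7, and reads may be shared among them, so the 2 values are uncertain as values of single genes.

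Ptafr, the receptor for platelet-activating factor, had 19.2 and 18.6 CPM in sh1Ybx1, 1.36 and 1.03 CPM in sh2Ybx1 and 0.643 to 2.53 CPM in shNT. Adora2b, an adenosine receptor, had 19.96 and 16.5 CPM in sh1Ybx1, 1.20 and 1.63 CPM in sh2Ybx1 and 0.272 to 3.84 CPM in shNT. The sh2Ybx1 libraries lay inside the shNT range for both receptors, and the log2 fold changes were 3.99 (SE 0.179) for Ptafr and 3.67 (SE 0.183) for Adora2b. Rap1gap2, which switches off the small GTPase Rap1, had a log2 fold change of 3.44 (SE 0.134), with 43.4 and 36.0 CPM in sh1Ybx1, 3.71 and 3.62 CPM in sh2Ybx1 and 1.84 to 6.34 CPM in shNT. Rgs2, which shortens G-protein signals, had 16.3 and 16.2 CPM in sh1Ybx1, 1.73 and 2.66 CPM in sh2Ybx1 and 1.96 to 13.9 CPM in shNT (log2 fold change 2.87, SE 0.172). The stefins were counted rarely. Stfa2l1 had 35 and 28 counts in sh1Ybx1 and none in either sh2Ybx1 library, which puts it at least 23.2-fold higher in sh1Ybx1 against a floor of 3 counts over the sh2Ybx1 group. The shNT libraries had 13, 13, 5 and 0 counts of Stfa2l1. Its TPM values were 0 and 11.3 in sh1Ybx1, so its mean TPM of 5.65 rested on replicate 2. Stfa1 had 33 and 22 counts in sh1Ybx1 and 0 and 1 in sh2Ybx1, a ratio of 60.8 with an exact 95% interval of 10.5 to 2444 that covers counting error only. The shNT libraries had 0, 4, 2 and 0 counts of Stfa1. The stefin genes are close paralogs on chromosome 16, and reads may be shared among them.

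The 12 lowest genes were of more mixed kinds. Nkg7, a granule protein of cytotoxic lymphocytes, stood at 0.383 and 0.627 CPM in sh1Ybx1 and at 8.29 and 6.96 CPM in sh2Ybx1, against 3.02 to 10.6 CPM in shNT (log2 fold change -3.89, SE 0.257, edgeR adjusted p 5.21e-13). Serpinb1a, an inhibitor of neutrophil serine proteases, stood at 46.1 and 58.0 CPM in sh1Ybx1 and at 353 and 371 CPM in sh2Ybx1, against 63.2 to 486 CPM in shNT (log2 fold change -2.79, SE 0.112, edgeR adjusted p 6.36e-18). Rps27l, a ribosomal protein paralog induced by p53, stood at 96.7 and 99.2 CPM in sh1Ybx1 and at 380 and 350 CPM in sh2Ybx1, against 129 to 284 CPM in shNT (log2 fold change -1.89, SE 0.101). Nkg7 and Serpinb1a were inside the shNT range with sh2Ybx1 and below it with sh1Ybx1, while Rps27l lay below that range with sh1Ybx1 and above it with sh2Ybx1.

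The interferon-inducible GTPases Iigp1, Tgtp1 and Tgtp2, which act against vacuolar pathogens, were 3 of the 12 lowest. Tgtp2 had 9.96 and 11.3 CPM in sh1Ybx1 and 43.4 and 37.4 CPM in sh2Ybx1 (log2 fold change -1.92, SE 0.111). Its shNT libraries stood at 15.9, 74.6, 67.2 and 8.33 CPM, so they spanned both hairpins. Iigp1 behaved in the same way, with 2.38 and 2.42 CPM in sh1Ybx1, 16.4 and 14.3 CPM in sh2Ybx1 and 5.07, 64.8, 84.1 and 1.86 CPM in shNT (log2 fold change -2.67, SE 0.164). Tgtp1 had a log2 fold change of -2.23 (SE 0.225), but Tgtp1 and Tgtp2 are near-identical and their reads cannot be told apart with certainty. Among the rest, Tg, the thyroid hormone precursor thyroglobulin, had 1.66 and 1.25 CPM in sh1Ybx1, 20.4 and 11.4 CPM in sh2Ybx1 and 1.98 to 17.5 CPM in shNT (log2 fold change -3.43, SE 0.234). Kank1, a regulator of the actin cortex, had 5.28 and 5.47 CPM in sh1Ybx1, 47.4 and 28.5 CPM in sh2Ybx1 and 4.11 to 20.9 CPM in shNT (log2 fold change -2.81, SE 0.167). Kank1 was thus inside the shNT range with sh1Ybx1 and above it with sh2Ybx1. The difference was smaller in the deposited TPM values, with 1.74 and 3.15 TPM in sh1Ybx1 and 7.46 and 4.84 TPM in sh2Ybx1. In log2(TPM + 1) the log2 fold change of Kank1 was -1.06. Hba-a1, an alpha globin gene with a near-identical copy, had 1.28 and 1.71 CPM in sh1Ybx1, 9.16 and 8.02 CPM in sh2Ybx1 and 0.159 to 11.3 CPM in shNT (log2 fold change -2.51, SE 0.201). The zinc transporter Slc30a2 (log2 fold change -2.19), the betaine and GABA transporter Slc6a12 (-1.80) and Lrrc51 (-1.95) complete the 12.

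**Figure D2:**
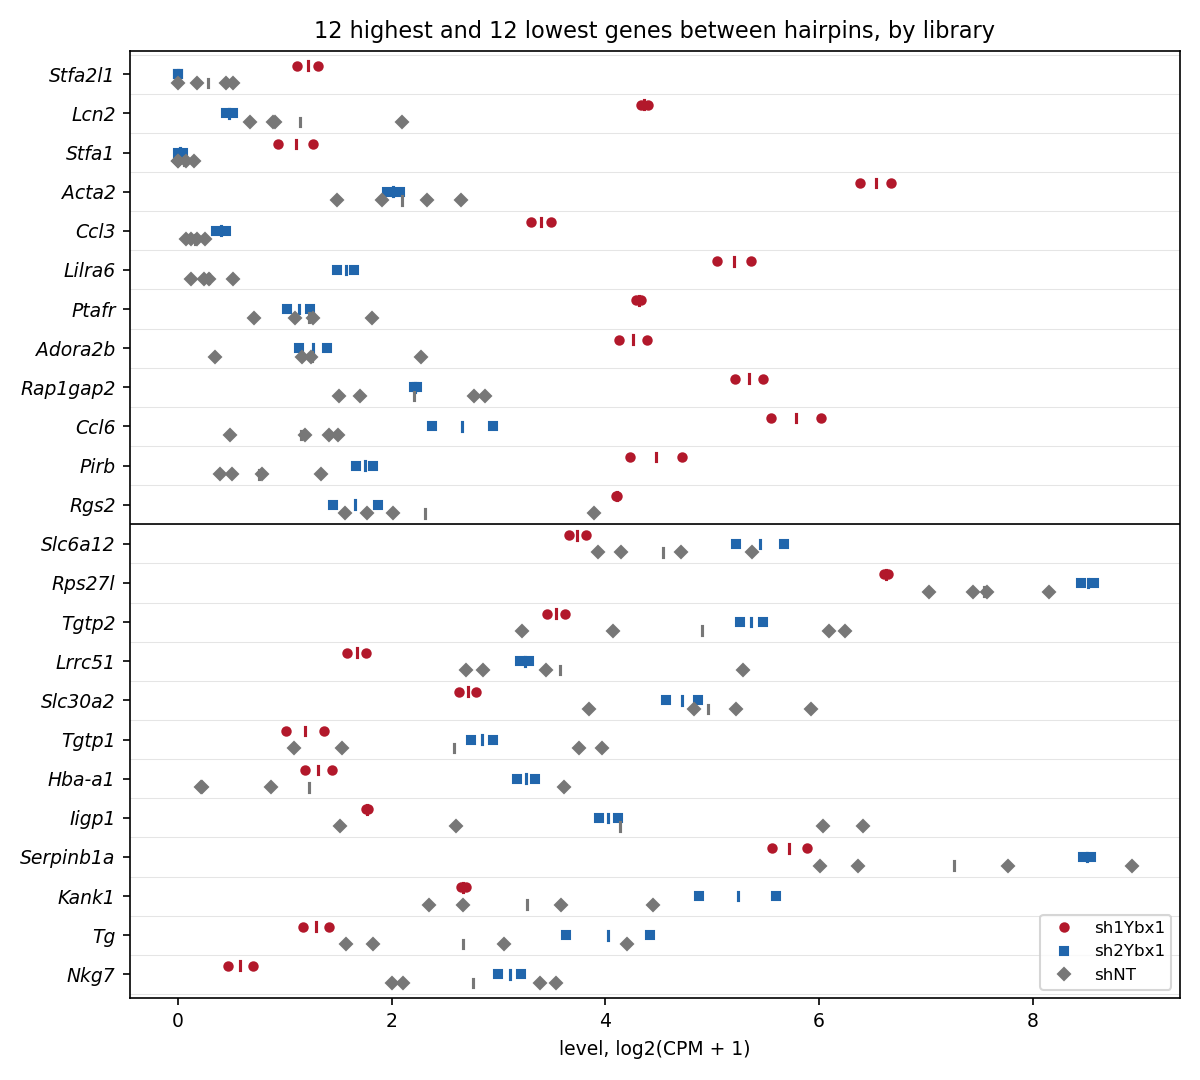
Level in log2(CPM + 1) of the 12 highest genes (upper block) and the 12 lowest genes (lower block) between hairpins, 1 symbol per library, with short bars at the group means: 2 sh1Ybx1 libraries (circles), 2 sh2Ybx1 libraries (squares) and 4 shNT libraries (diamonds). The 24 genes were picked among those whose hairpin groups do not overlap, and the shNT libraries are spread most widely for Iigp1 and Hba-a1.

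The bases before the RefSeq start sites of Lcn2, Acta2 and Tgtp2 are shown because these genes are examples of the neutrophil, contractile and interferon-inducible genes named above, chosen after their values were seen. The sequences are from RefSeq (GRCm38.p6), 250 bases long, 5′ to 3′ on the minus strand, on which all 3 genes lie, at chr2:32387740-32387989, chr19:34255374-34255623 and chr11:49064213-49064462. The GENCODE M21 models of Lcn2 and Acta2 begin further upstream, at 32388252 and 34255590, so the Lcn2 window lies wholly and the Acta2 window mostly inside those gene models. Capitals mark matches to a motif.
Lcn2: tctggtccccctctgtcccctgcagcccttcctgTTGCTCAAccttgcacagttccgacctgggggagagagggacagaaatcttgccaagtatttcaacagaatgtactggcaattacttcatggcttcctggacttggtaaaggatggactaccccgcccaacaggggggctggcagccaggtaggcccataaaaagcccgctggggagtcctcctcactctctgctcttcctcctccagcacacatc
Acta2: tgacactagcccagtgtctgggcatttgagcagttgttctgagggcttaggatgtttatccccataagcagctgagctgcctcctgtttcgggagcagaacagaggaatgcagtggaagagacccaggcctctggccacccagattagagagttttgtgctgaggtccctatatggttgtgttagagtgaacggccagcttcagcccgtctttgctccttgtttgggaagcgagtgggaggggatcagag
Tgtp2: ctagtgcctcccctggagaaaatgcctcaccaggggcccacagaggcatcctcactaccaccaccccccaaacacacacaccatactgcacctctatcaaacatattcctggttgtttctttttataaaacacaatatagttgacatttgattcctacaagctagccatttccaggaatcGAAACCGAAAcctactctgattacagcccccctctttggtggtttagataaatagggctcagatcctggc

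Motifs were searched on both strands from 250 bases before to 50 after the start: TTGCNNAA for C/EBP factors, which drive granulocyte genes, GAAA followed by any 2 bases and GAAA for the interferon-stimulated response element (ISRE), the CArG box bound by serum response factor, and the kappaB site. The capitals in Lcn2 are a C/EBP match, and those in Tgtp2 an ISRE match. The Acta2 window held no exact match to any of the 4 motifs. Stretches close to the CArG spelling, such as ccctatatgg and ccttgtttgg in the Acta2 window, were not counted. Matches of this kind are common and are no evidence of binding. Of 32851 RefSeq windows, the first listed for each gene symbol was used, which left 27025, so other starts of a gene were not searched. The C/EBP motif was present in 12.1% of the 372 windows found for genes at least 2-fold higher in sh1Ybx1 and in 8.61% of the 209 windows found for genes at least 2-fold lower. It was present in 8.30% of the 9351 windows of genes tested and in 10.8% of the 27025 windows. For the ISRE the shares were 5.11%, 5.74%, 3.05% and 3.49%, for the CArG box 3.49%, 2.39%, 1.21% and 1.57%, and for the kappaB site 11.02%, 9.09%, 9.77% and 8.18%, in the same order of gene sets. Some shares rest on few windows. Among genes at least 2-fold lower, 12 windows held an ISRE and 5 a CArG box.

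Of 215 genes with a mean of at least 500 CPM over the 4 hairpin libraries, 73 were called, 34.0% against 42.4% of all genes tested. The median size of their log2 fold change was 0.23, against 0.28 over all genes tested. Ctsd, the lysosomal protease cathepsin D, had 1244 and 970 CPM in sh1Ybx1 and 225 and 205 CPM in sh2Ybx1, against 193 to 443 CPM in shNT (log2 fold change 2.37, SE 0.130). The actin-binding proteins Cotl1 and Flna also stood above the shNT range with sh1Ybx1, Cotl1 with 769 and 923 CPM in sh1Ybx1, 264 and 274 CPM in sh2Ybx1 and 167 to 436 CPM in shNT (log2 fold change 1.66, SE 0.118). Flna had 1923 and 1972 CPM in sh1Ybx1, 740 and 720 CPM in sh2Ybx1 and 186 to 556 CPM in shNT (log2 fold change 1.42, SE 0.125), so it was above the shNT range with both hairpins. Fam107b had 807.6 and 796.7 CPM in sh1Ybx1, 272.4 and 295.7 CPM in sh2Ybx1 and 191 to 637 CPM in shNT. At the other end were the protease inhibitor Serpina3g (log2 fold change -0.88, SE 0.124), the ribosomal protein genes Rpl14 (-0.85, SE 0.132) and Rps12 (-0.57, SE 0.136), the nuclear transport GTPase Ran (-0.64, SE 0.117) and the sorting nexin Snx5 (-0.64).

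Lars2, the mitochondrial leucyl-tRNA synthetase, had the highest fold change of the genes with many counts, and it rested on 1 library. It stood at 186 and 2206 CPM in sh1Ybx1 and at 191 and 162 CPM in sh2Ybx1, against 110 to 266 CPM in shNT (log2 fold change 2.76, SE 0.470, edgeR adjusted p 2.20e-05). Without sh1Ybx1 replicate 2 the log2 fold change was 0.08 (edgeR adjusted p 0.633), and DESeq2 did not call Lars2 with all 4 libraries (adjusted p 0.123). Gm15564, annotated as an antisense RNA on another chromosome and chosen after its values were seen, was likewise high in that library alone, with 3.66 and 50.9 CPM in sh1Ybx1, 3.30 and 2.27 CPM in sh2Ybx1 and 1.51 to 3.67 CPM in shNT.

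A minority of the 2-fold genes had the hairpins on opposite sides of the shNT range. Of those higher in sh1Ybx1, 10.1% were above with sh1Ybx1 and below with sh2Ybx1, against 1.02% of all genes tested. Of those lower, 4.10% were below with sh1Ybx1 and above with sh2Ybx1, against 0.468%. Genes picked as 2-fold apart can more readily lie on opposite sides. Of the 535 genes at least 2-fold higher in sh1Ybx1, 148 were above all shNT libraries in both sh1Ybx1 libraries and inside the shNT range in both sh2Ybx1 libraries, 103 were above with both hairpins, 59 were inside with sh1Ybx1 and below with sh2Ybx1, and 54 were above with sh1Ybx1 and below with sh2Ybx1. Over the 13258 genes tested these positions held 589, 2250, 607 and 135 genes. Of the 317 genes at least 2-fold lower in sh1Ybx1, 69 were below with sh1Ybx1 and inside with sh2Ybx1, 57 were inside with sh1Ybx1 and above with sh2Ybx1, 33 were above with both hairpins, and 13 were below with sh1Ybx1 and above with sh2Ybx1. Over the genes tested these positions held 461, 627, 2250 and 62 genes. The contrasts of each hairpin with shNT share the control libraries, so no overlap between them was tested.

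The genes on opposite sides of the shNT libraries had as the 6 of smallest p, at a TPM of at least 5, Lcn2, Clec4e, Cebpd, Rras, Tpm4 and Id2, each above shNT with sh1Ybx1 and below it with sh2Ybx1. Clec4e, the macrophage receptor Mincle, stood at 174 and 146 CPM in sh1Ybx1 and at 23.8 and 26.5 CPM in sh2Ybx1, against 33.8 to 43.3 CPM in shNT (log2 fold change 2.67, SE 0.106). Cebpd, a C/EBP transcription factor of the acute phase and of myeloid cells, stood at 66.9 and 76.3 CPM in sh1Ybx1 and at 11.8 and 12.4 CPM in sh2Ybx1, against 31.0 to 41.0 CPM in shNT (log2 fold change 2.57, SE 0.103). Id2, which blocks E-protein transcription factors, stood at 49.5 and 41.1 CPM in sh1Ybx1 and at 7.79 and 8.63 CPM in sh2Ybx1, against 13.9 to 18.6 CPM in shNT (log2 fold change 2.46, SE 0.116). For these 3 genes the 4 shNT libraries were close together, between the hairpins. Rras, a small GTPase of integrin signalling, had 37.03 and 34.4 CPM in sh1Ybx1, 6.31 and 5.395 CPM in sh2Ybx1 and 14.5 to 33.7 CPM in shNT (log2 fold change 2.62, SE 0.122). Tpm4, a tropomyosin that wraps actin filaments, had 162 and 156 CPM in sh1Ybx1, 40.6 and 39.5 CPM in sh2Ybx1 and 67.6 to 87.8 CPM in shNT (log2 fold change 1.99, SE 0.0936).

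Genes were then read by 27 lists of pathways and cell type markers, for each of which the counts in each direction stand beside the share over all genes tested (22.3% higher and 20.1% lower in sh1Ybx1, median log2 fold change -0.01). A called share above the 42.4% of all genes was usual, and 21 of the 27 lists had one. Genes of low level were called less often, 21.2% in the lowest of 5 groups by level against 47.7% in the highest. The lists were not matched to all genes by level, so a share above 42.4% is not by itself particular to a list. The lists with the highest medians were myeloid and macrophage markers, chemokines and cytokines, integrins and adhesion genes, and contractile cytoskeleton genes. Below 0 were, among others, DNA replication, splicing regulators, ERK response genes and ribosomal proteins.

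Myeloid markers were mostly higher in sh1Ybx1. Of 14 tested, 11 were higher, 9 of them by at least 2-fold, and 1 was lower, with a median log2 fold change of 1.46. Tyrobp, the signalling adaptor of many myeloid receptors, stood at 88.0 and 69.5 CPM in sh1Ybx1 and at 14.4 and 10.3 CPM in sh2Ybx1, against 2.33 to 8.14 CPM in shNT (log2 fold change 2.68, SE 0.125). Itgam, the integrin chain CD11b, stood at 7.62 and 7.02 CPM in sh1Ybx1 and at 0.454 and 0.923 CPM in sh2Ybx1, against 0.0279 to 0.272 CPM in shNT (log2 fold change 3.37, SE 0.247). Both were above the shNT range with either hairpin. The IgG receptors Fcgr2b (log2 fold change 1.82) and Fcgr3 (1.58), the granulocyte factor Cebpe (1.58), the macrophage receptors Adgre1 (1.35) and Csf1r (2.47) and the master regulator Spi1 (1.04) were also higher in sh1Ybx1. Spi1 had 140 and 150 CPM in sh1Ybx1, 67.6 and 74.1 CPM in sh2Ybx1 and 56.4 to 87.3 CPM in shNT. Prtn3, a protease of neutrophil granules, was the lower one, with 2.17 and 3.18 CPM in sh1Ybx1, 4.83 and 7.21 CPM in sh2Ybx1 and 7.32 to 17.8 CPM in shNT (log2 fold change -1.17, SE 0.213).

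The summed level of the 14 myeloid markers was 1612 and 1396 CPM in sh1Ybx1 and 562 and 573 CPM in sh2Ybx1, against 471 to 810 CPM in shNT. Of the 11 markers of the list that were not tested, 8 stood at 0 TPM in all 8 libraries, among them Lyz1, Cd14, Elane, Cebpa, Csf3r and Cybb, which are expressed at various stages of monocyte and granulocyte development. Whether more cells of a kind or more RNA per cell gave a higher level cannot be told apart in bulk libraries, and the part of cell makeup in any result here was not tested.

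Chemokines, cytokines and their receptors went the same way for 10 of 19 genes tested, with 3 lower in sh1Ybx1 and a median log2 fold change of 0.79. Beside Ccl3 and Ccl6, the inflammatory cytokine genes Il1a (log2 fold change 3.76, SE 0.550), Il1b (2.80, SE 0.317) and Tnf (1.20, SE 0.113) were higher in sh1Ybx1. Il1b stood at 2.98 and 2.63 CPM in sh1Ybx1 and at 0.371 and 0.426 CPM in sh2Ybx1, against 0 to 0.0838 CPM in shNT. Tnf had 26.7 and 29.2 CPM in sh1Ybx1, 11.5 and 12.7 CPM in sh2Ybx1 and 3.98 to 16.9 CPM in shNT. The chemokine receptors Cxcr4 (log2 fold change 1.64, SE 0.103) and Ccr1 (1.74, SE 0.124) and the macrophage growth factor Csf1 (1.52, SE 0.145) were higher as well. Ccr7 (-1.51, SE 0.499) and Ccl17 (-1.24, SE 0.357), a lymph-node homing receptor and a T-cell chemokine, were lower, both at under 2 CPM in every library.

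Integrins and other adhesion genes were higher in sh1Ybx1 for 13 of 21 tested and lower for 2, with a median log2 fold change of 0.70. L1cam, a neural adhesion molecule, had 42.9 and 32.0 CPM in sh1Ybx1, 6.56 and 6.39 CPM in sh2Ybx1 and 0.663 to 3.12 CPM in shNT (log2 fold change 2.54, SE 0.133). L1cam was above shNT with both hairpins. Cd44 (log2 fold change 1.18), the leukocyte integrin chain Itgb2 (1.13) and the beta-3 chain Itgb3 (1.03) were higher in sh1Ybx1, and the alpha chains Itga4 (-0.49) and Itgal (-0.37) were lower.

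Contractile and cytoskeletal genes differed in both directions. Of 18 tested, 11 were higher and 4 lower in sh1Ybx1, together 83.3% against 42.4% of all genes, with a median log2 fold change of 0.47. Cnn2, an actin-binding calponin, had 265 and 306 CPM in sh1Ybx1, 59.7 and 61.8 CPM in sh2Ybx1 and 42.8 to 60.6 CPM in shNT (log2 fold change 2.24, SE 0.102). Vcl, the focal-adhesion protein vinculin, had 94.3 and 102 CPM in sh1Ybx1, 35.1 and 32.1 CPM in sh2Ybx1 and 68.6 to 135 CPM in shNT (log2 fold change 1.55, SE 0.0930). With vinculin, the sh1Ybx1 libraries were the ones inside the shNT range. The smooth muscle actin Actg2 (1.45) and the filament protein Vim (0.71) were higher in sh1Ybx1. The skeletal actin Acta1 (-1.30) and the tropomyosin Tpm2 (-0.83) were lower, and both were nearly absent from shNT: Tpm2 had 4.55 and 6.64 CPM in sh1Ybx1, 8.99 and 10.9 CPM in sh2Ybx1 and at most 0.0667 CPM in shNT. Actins are close paralogs, and part of their reads may be shared.

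**Figure D3:**
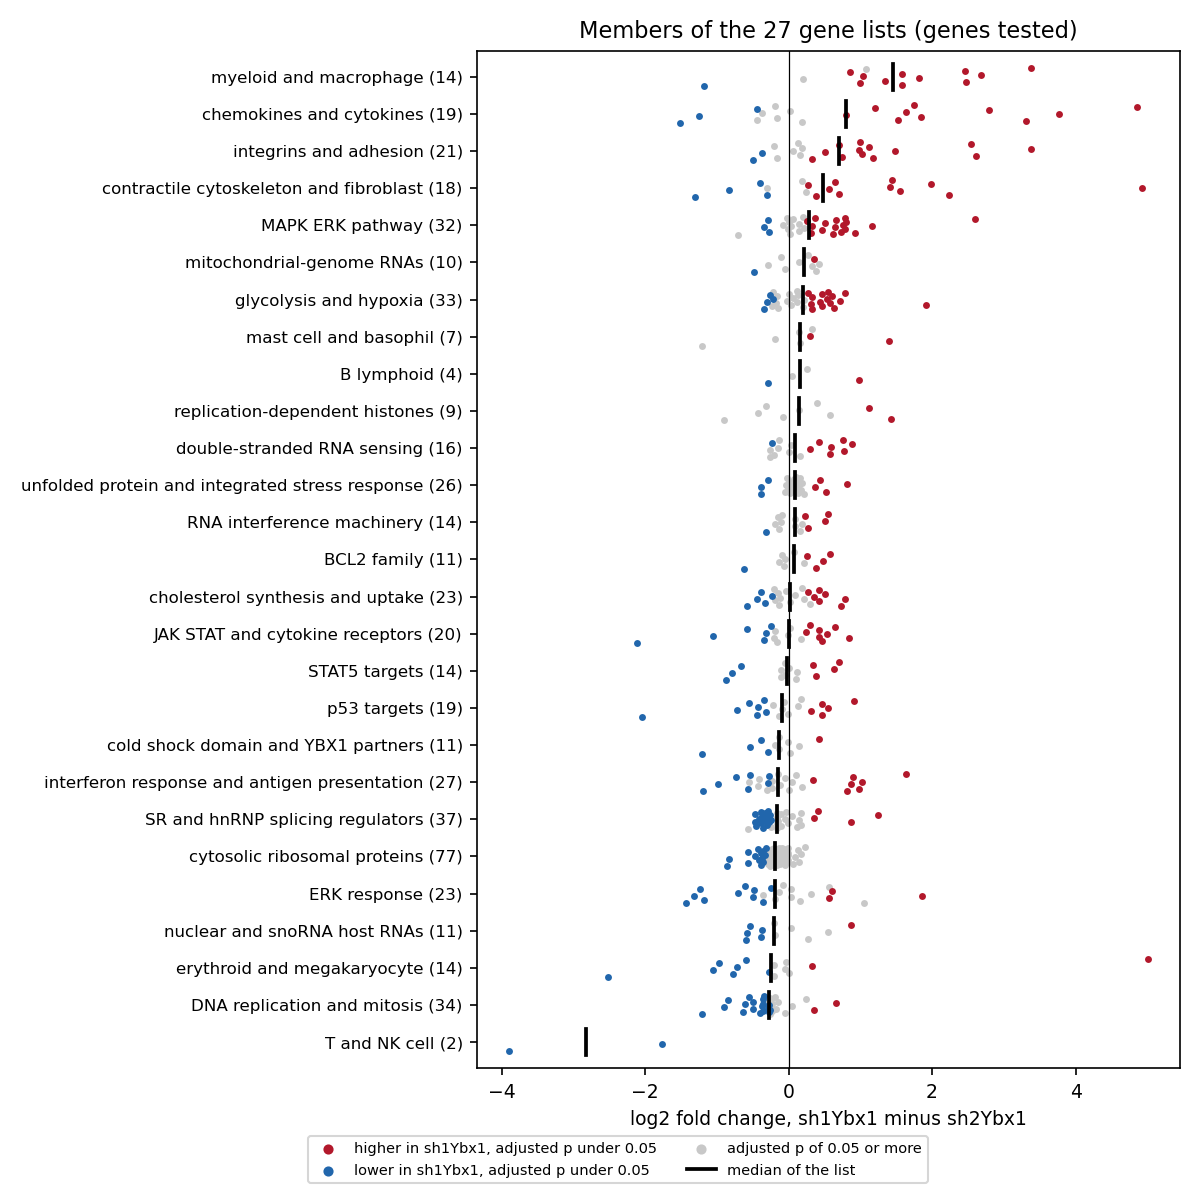
Log2 fold change, sh1Ybx1 minus sh2Ybx1 (horizontal axis), of each tested member of the 27 gene lists, 1 point per gene, with a black bar at each list's median; the number of genes tested follows each name. The lists run from myeloid and macrophage markers (median 1.46) at the top to the 2 T and NK cell genes (median -2.83) at the bottom, and most lists hold genes called in both directions.

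Components of the MAPK cascade and the genes that ERK signalling induces did not go the same way. Of 32 cascade genes, 17 were higher and 3 lower in sh1Ybx1 (median log2 fold change 0.29). Mapk3, which encodes ERK1, had 65.2 and 73.1 CPM in sh1Ybx1, 40.7 and 39.8 CPM in sh2Ybx1 and 48.5 to 106 CPM in shNT (log2 fold change 0.78, SE 0.0913). Mapk3 lay inside the shNT range with sh1Ybx1 and below it with sh2Ybx1. Rasgrp4 (log2 fold change 2.59), a Ras activator of myeloid and mast cells, and Nras (0.65) were also higher, as were the downstream kinases Mapkapk2 (0.92) and Mapkapk3 (0.80). Hras was lower (-0.34).

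Of 23 ERK response genes, 3 were higher and 10 lower in sh1Ybx1 (median log2 fold change -0.20; the median was 0.00 in the TPM values). Etv5, an ETS factor, had 5.92 and 6.06 CPM in sh1Ybx1, 14.5 and 15.4 CPM in sh2Ybx1 and 4.84 to 55.6 CPM in shNT (log2 fold change -1.32, SE 0.139). Dusp4, a phosphatase that turns ERK off, had 46.1 and 50.8 CPM in sh1Ybx1, 79.7 and 78.2 CPM in sh2Ybx1 and 194 to 348 CPM in shNT (log2 fold change -0.70, SE 0.0901). Dusp4 was below all shNT libraries with both hairpins and lower with sh1Ybx1. Spry4 (-1.19), Egr2 (-1.42) and Myc (-0.61) were lower too. Fosl2, an AP-1 subunit, was 1 of the 3 higher genes, with 60.4 and 59.7 CPM in sh1Ybx1, 16.0 and 17.0 CPM in sh2Ybx1 and 21.5 to 321 CPM in shNT (log2 fold change 1.87, SE 0.0966).

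Genes of cytokine-receptor signalling were called often, in both directions. Of 20 JAK-STAT and cytokine receptor genes, 8 were higher and 6 lower in sh1Ybx1, with a median of 0.01 whose sign changed under upper quartile scaling, in the TPM values and without replicate 1 of either hairpin. Jak2 itself, the gene that carries the activating change, had 1378 and 1246 CPM in sh1Ybx1, 1714 and 1566 CPM in sh2Ybx1 and 1064 to 1614 CPM in shNT (log2 fold change -0.32, SE 0.127, edgeR adjusted p 0.0431). Il2ra, the alpha chain of the IL-2 receptor, had 1.49 and 1.504 CPM in sh1Ybx1, 7.38 and 5.71 CPM in sh2Ybx1 and 3.63 to 17.4 CPM in shNT (log2 fold change -2.12, SE 0.213). Stat6 (0.85), Stat5b (0.47) and the IL-3 receptor chain Il3ra (0.42) were higher in sh1Ybx1, and the phosphatase Ptpn6 (-0.57) was lower.

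Of 14 STAT5 target genes, 4 were higher and 3 lower in sh1Ybx1 (median log2 fold change -0.02, of opposite sign in the TPM values and without replicate 1 of either hairpin). The survival kinase Pim1 was higher (0.70, SE 0.108). The cyclin Ccnd2 was lower, with 116 and 130 CPM in sh1Ybx1, 218 and 232 CPM in sh2Ybx1 and 218 to 564 CPM in shNT (log2 fold change -0.87, SE 0.0970), as was the feedback inhibitor Socs1 (-0.79, SE 0.0926). Among 11 BCL2 family genes, 4 were higher and 1 lower in sh1Ybx1, a called share of 45.5% against 42.4% of all genes. The lower one was Bcl2, the founding inhibitor of apoptosis, with 110 and 118 CPM in sh1Ybx1, 181 and 172 CPM in sh2Ybx1 and 308 to 495 CPM in shNT (log2 fold change -0.62, SE 0.0925), so that Bcl2 was below shNT with both hairpins. Of 19 p53 targets, 5 were higher and 7 lower (median -0.09, of opposite sign in the TPM values), the death receptor Tnfrsf10b (0.92, SE 0.123) and Gtse1 (-0.72, SE 0.0927) among them, while Cdkn1a, the cell-cycle inhibitor p21, had a log2 fold change of 0.32 (SE 0.109).

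DNA replication and mitosis genes were lower in sh1Ybx1 for 18 of 34 tested and higher for 2, with a median log2 fold change of -0.27. Rrm2, the regulated subunit of ribonucleotide reductase, had 88.9 and 102 CPM in sh1Ybx1, 150 and 194 CPM in sh2Ybx1 and 42.7 to 355 CPM in shNT (log2 fold change -0.85, SE 0.107). The replicative helicase subunit Mcm2 had 95.5 and 127 CPM in sh1Ybx1, 155 and 185 CPM in sh2Ybx1 and 89.7 to 391 CPM in shNT (log2 fold change -0.61, SE 0.111). For both genes the lowest shNT library was replicate 4, which lay under the hairpin libraries. The cyclin Ccne2 (-0.90) and the inhibitor Cdkn2c (-1.20) were lower as well. The 2 higher genes both restrain the cycle: Cdkn1b, the inhibitor p27, had 105 and 89.4 CPM in sh1Ybx1, 64.9 and 58.1 CPM in sh2Ybx1 and 43.0 to 193 CPM in shNT (log2 fold change 0.67, SE 0.0961), and Rb1, the retinoblastoma gene, had a log2 fold change of 0.35.

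RNA-binding proteins that regulate splicing were lower in sh1Ybx1 for 16 of 37 tested and higher for 4 (median log2 fold change -0.16). Srsf3, an SR protein, had 313 and 320 CPM in sh1Ybx1, 423 and 458 CPM in sh2Ybx1 and 157 to 365 CPM in shNT (log2 fold change -0.47, SE 0.105). Hnrnpa1 had 493 and 553 CPM in sh1Ybx1, 687 and 761 CPM in sh2Ybx1 and 1098 to 1230 CPM in shNT (log2 fold change -0.47, SE 0.116). The poly(C)-binding proteins went the other way. Pcbp1 had 402 and 475 CPM in sh1Ybx1, 170 and 199 CPM in sh2Ybx1 and 423 to 517 CPM in shNT (log2 fold change 1.25, SE 0.111), so both sh2Ybx1 libraries were below shNT, and 1 of the sh1Ybx1 libraries was. Pcbp2 had a log2 fold change of 0.87 (SE 0.0957).

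Among 11 genes of cold shock domain proteins and YBX1 partners, 1 was higher and 4 lower in sh1Ybx1, Ybx1 included. The called share was 45.5%, near the 42.4% of all genes. Igf2bp2, a reader of modified mRNA, was lower with at most 2.34 CPM in either hairpin (log2 fold change -1.20, SE 0.295). Of 14 genes of the RNA interference machinery, on which both hairpins depend, 4 were higher and 1 lower. This was a called share of 35.7%, below that of all genes. Ago2, the slicing Argonaute, had 294 and 293 CPM in sh1Ybx1, 195 and 209 CPM in sh2Ybx1 and 233 to 683 CPM in shNT (log2 fold change 0.54, SE 0.0979). Of 16 genes that sense or respond to double-stranded RNA, 7 were higher and 1 lower in sh1Ybx1 (median log2 fold change 0.10). Oas3, an oligoadenylate synthetase, had 18.4 and 19.8 CPM in sh1Ybx1, 11.9 and 8.84 CPM in sh2Ybx1 and 12.6 to 39.3 CPM in shNT (log2 fold change 0.89, SE 0.132). The nucleic acid sensor Zbp1 (0.77) was also higher.

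Of 27 interferon and antigen presentation genes tested, 7 were higher and 7 lower, a called share of 51.9% against 42.4% of all genes. Their median log2 fold change was -0.14, of opposite sign in the TPM values and among genes with a TPM of at least 5. The class I genes H2-K1 (0.98, SE 0.119), H2-D1 (0.90, SE 0.114) and H2-T23 (1.02, SE 0.0983) were higher in sh1Ybx1; they are close paralogs. H2-K1 had 797 and 648 CPM in sh1Ybx1, 384 and 354 CPM in sh2Ybx1 and 435 to 722 CPM in shNT. Gbp2, a guanylate-binding protein, had 35.7 and 37.7 CPM in sh1Ybx1, 12.5 and 11.2 CPM in sh2Ybx1 and 1.86 to 41.3 CPM in shNT (log2 fold change 1.64, SE 0.106). The antiviral Ifitm3 was lower, with 79.9 and 84.3 CPM in sh1Ybx1, 168 and 158 CPM in sh2Ybx1 and 157 to 314 CPM in shNT (log2 fold change -0.99, SE 0.0921), as was Ciita, the activator of class II genes (-1.20, SE 0.222). Gbp2, like Iigp1 and the Tgtp genes, was high in shNT replicates 2 and 3 and low in shNT replicates 1 and 4.

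Glycolysis and hypoxia genes were higher in sh1Ybx1 for 15 of 33 tested and lower for 4 (median log2 fold change 0.20). Aldoa, glycolytic aldolase, had 1345 and 1558 CPM in sh1Ybx1, 825 and 868 CPM in sh2Ybx1 and 2241 to 9032 CPM in shNT (log2 fold change 0.78, SE 0.125). Ndrg1, a stress and hypoxia gene, had 59.1 and 65.7 CPM in sh1Ybx1, 18.0 and 15.2 CPM in sh2Ybx1 and 76.4 to 749 CPM in shNT (log2 fold change 1.91, SE 0.102). Both were below all shNT libraries with either hairpin, and further below with sh2Ybx1. Among 23 cholesterol genes, 7 were higher and 5 lower (median 0.01, of opposite sign under upper quartile scaling), among them the synthesis enzyme Hsd17b7 (0.73) and Insig1 (-0.58), which holds the pathway back. Among 26 genes of the unfolded protein and integrated stress responses, 4 were higher and 3 lower in sh1Ybx1. Their called share of 26.9% was below the 42.4% of all genes. Edem1 (0.82) and Herpud1 (0.52) were among the higher ones, both factors of protein disposal from the endoplasmic reticulum.

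**Figure D4:**
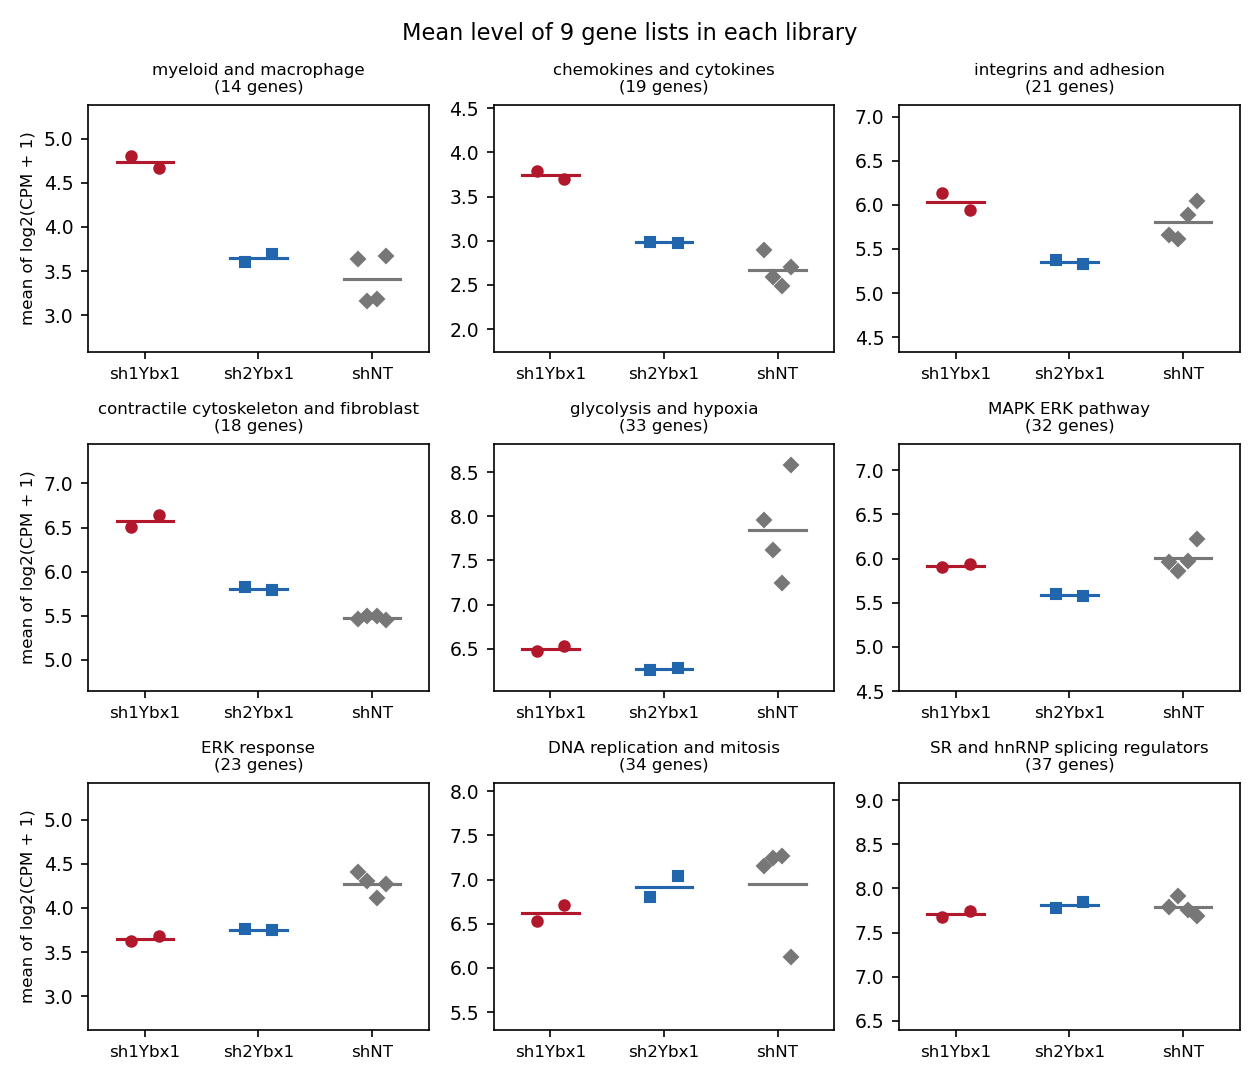
Mean of log2(CPM + 1) over the tested genes of 9 lists, 1 symbol per library, for sh1Ybx1 (2 libraries), sh2Ybx1 (2) and shNT (4), with bars at group means; each panel spans the same range of log2 units and does not start at 0. Myeloid markers were at 4.80 and 4.67 in sh1Ybx1 and at 3.61 and 3.70 in sh2Ybx1, against 3.16 to 3.67 in shNT, while glycolysis genes were at 6.47 and 6.53 in sh1Ybx1 and at 6.26 and 6.28 in sh2Ybx1, against 7.24 to 8.58 in shNT.

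Of 77 cytosolic ribosomal protein genes, 14 were lower in sh1Ybx1 and none was higher, a called share of 18.2% against 42.4% of all genes, with a median log2 fold change of -0.18. Rpl14 was the member of smallest p, with 1590 and 1627 CPM in sh1Ybx1, 3041 and 2791 CPM in sh2Ybx1 and 2073 to 3124 CPM in shNT. Rpl36 had 881 and 903 CPM in sh1Ybx1, 1415 and 1226 CPM in sh2Ybx1 and 784 to 1359 CPM in shNT (log2 fold change -0.56, SE 0.123). Ribosomal protein genes have many pseudogene copies that may share reads with them.

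Lists that report on RNA makeup were also counted. Of 10 RNAs of the mitochondrial genome, 1 was higher and 1 lower in sh1Ybx1, and their summed level was 41399 and 23636 CPM in sh1Ybx1 and 31659 and 26110 CPM in sh2Ybx1, against 6697 to 22409 CPM in shNT. The 2 calls were mt-Co3 (log2 fold change 0.36, SE 0.141, edgeR adjusted p 0.0394) and mt-Nd2 (-0.48, SE 0.182, edgeR adjusted p 0.0335), subunits of cytochrome oxidase and complex I. In counts, mt-Co3 stood at only 12.8 and 10.4 CPM in sh1Ybx1 and 9.49 and 8.70 CPM in sh2Ybx1. Its TPM values were 1339 and 3.14 in sh1Ybx1 and 1042 and 4.76 in sh2Ybx1, so its level is uncertain. Each of the 2 calls was lost when either of 2 libraries was left out: sh1Ybx1 replicate 1 or sh2Ybx1 replicate 2 for mt-Co3, and sh1Ybx1 replicate 2 or sh2Ybx1 replicate 1 for mt-Nd2, whose hairpin groups overlapped. Neither passed the threshold with DESeq2 (adjusted p 0.125 for mt-Co3 and 0.446 for mt-Nd2) or with upper quartile scaling in edgeR (adjusted p 0.0994 for mt-Co3 and 0.0626 for mt-Nd2). The list's median of 0.21 turned to -0.20 without sh1Ybx1 replicate 1. Among histone genes of S phase, which make transcripts without poly(A), 2 of 9 were higher, a called share of 22.2%. They were the linker histone Hist1h1c (1.43, SE 0.0982) and Hist1h4i (1.12, SE 0.148). The histone median of 0.15 turned to -0.09 without sh1Ybx1 replicate 1. Of 11 nuclear and snoRNA host RNAs, 5 were lower and 1 was higher in sh1Ybx1, the snoRNA hosts Snhg6 (-0.58), Snhg15 (-0.59) and Snhg5 (-0.54) among the lower ones.

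The other cell type lists place the cells. Of 16 B lymphoid markers only Cd79a, Cd79b, Ptprc and Ikzf1 were tested, and 9 of the other 12 stood at 0 TPM in all 8 libraries, among them Ebf1, Rag1 and Igll1, which define committed B progenitors; Pax5, Vpreb1 and Vpreb3 reached at most 3.15 TPM. Ptprc, the leukocyte surface phosphatase CD45, was higher in sh1Ybx1, with 451 and 353 CPM in sh1Ybx1, 211 and 197 CPM in sh2Ybx1 and 122 to 205 CPM in shNT (log2 fold change 0.98, SE 0.112). Cd79a, a chain of the B-cell receptor, had 23.3 and 23.4 CPM in sh1Ybx1, 29.7 and 27.3 CPM in sh2Ybx1 and 18.9 to 29.9 CPM in shNT (log2 fold change -0.28, SE 0.0991), a call lost when any of the 4 libraries was left out and with DESeq2 (adjusted p 0.0926).

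Of 14 erythroid and megakaryocyte genes, 7 were lower and 2 higher in sh1Ybx1 (median log2 fold change -0.24). Gp6, the platelet collagen receptor, was far higher, with 160 and 137 counts in sh1Ybx1 and 1 and 9 counts in sh2Ybx1, against 0 to 6 counts in shNT (log2 fold change 5.01, SE 0.346). Klf1, the erythroid master factor, had 34.3 and 43.4 CPM in sh1Ybx1, 58.9 and 68.8 CPM in sh2Ybx1 and 17.4 to 77.0 CPM in shNT (log2 fold change -0.71, SE 0.104), and the transferrin receptor Tfrc was lower too (-0.60, SE 0.103). Their summed level was 5183 and 4582 CPM in sh1Ybx1 and 5901 and 5414 CPM in sh2Ybx1, against 5009 to 5912 CPM in shNT. Of 7 mast cell genes, 2 were higher, a called share of 28.6% against 42.4% of all genes. Among them was the protease Cpa3, with 42.0 and 22.9 CPM in sh1Ybx1, 13.5 and 11.3 CPM in sh2Ybx1 and 0.810 to 6.04 CPM in shNT (log2 fold change 1.39, SE 0.166). Kit stood at 0 TPM in all 8 libraries. Of 18 T and NK cell markers, Nkg7 and the kinase Lck were tested, both lower in sh1Ybx1, and 12 of the other 16 stood at 0 TPM in all 8 libraries, Cd4, Cd8a, Gzma and Prf1 among them.

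The 71 genes called both in the 4-library fit and in the fit over all 8 libraries were 63 higher and 8 lower in sh1Ybx1. Beside Lcn2, Acta2, Ccl3, Ccl6, Lilra6, Ptafr, Ctsd, Cnn2, Tpm4, Cebpd, Cebpe and Id2, the higher ones held, among others, 7 genes chosen after their values were seen. Tlr13, a sensor of bacterial ribosomal RNA, had 7.87 and 6.23 CPM in sh1Ybx1, 0.0412 and 0.284 CPM in sh2Ybx1 and 0 to 0.133 CPM in shNT (log2 fold change 5.32, SE 0.343). Prdx5, an antioxidant peroxiredoxin, had 796 and 763 CPM in sh1Ybx1, 171 and 177 CPM in sh2Ybx1 and 144 to 189 CPM in shNT (log2 fold change 2.17, SE 0.113). The inflammasome sensor Nlrp3 (2.71), the urokinase receptor Plaur (2.65), the lectin receptors Clec5a (2.22) and Clec4d (2.07) and the kinase Syk (1.07), which signals below such receptors, were in the set as well. For Prdx5, as for Acta2, the sh1Ybx1 libraries were above the shNT range and the sh2Ybx1 libraries inside it.

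Of the 8 lower genes of that set, Hemgn, a nuclear factor of blood progenitors, had 18.6 and 21.8 CPM in sh1Ybx1, 57.2 and 60.3 CPM in sh2Ybx1 and 50.6 to 70.1 CPM in shNT (log2 fold change -1.54, SE 0.0990). Slamf1, a signalling receptor of lymphocytes, had 27.7 and 25.4 CPM in sh1Ybx1, 70.7 and 73.7 CPM in sh2Ybx1 and 38.2 to 61.7 CPM in shNT (log2 fold change -1.44, SE 0.0937). The sh2Ybx1 libraries were inside the shNT range for Hemgn and above it for Slamf1. C1qtnf1 had the lowest log2 fold change of the 8 (-3.96, SE 0.480), with at most 0.167 CPM in sh1Ybx1, 1.77 and 1.67 CPM in sh2Ybx1 and 1.87 to 3.71 CPM in shNT.

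The share of genes called depended on level and on gene type. With the genes cut by mean CPM into 5 groups of equal size, 21.2% of the lowest group were called and 14.6% were called at 2-fold or more, against 47.7% and 3.28% of the highest group. Protein-coding genes were called in 45.8% of 11168 cases, long intergenic noncoding RNAs in 31.4% of 382 and processed pseudogenes in 20.9% of 527. Of 85 snoRNA genes, 17 were lower and 1 was higher in sh1Ybx1 (median log2 fold change -0.35). Their called share was 21.2%, against 42.4% of all genes tested. The share of lower calls was near the 20.1% over all genes, while higher calls were scarcer than the 22.3% over all genes. The summed snoRNA level was 196 and 186 CPM in sh1Ybx1 and 245 and 235 CPM in sh2Ybx1, against 76.5 to 144 CPM in shNT. Most snoRNAs lie in introns of host genes and are not polyadenylated, so reads counted for them may come from host transcripts. Over the numbered chromosomes and X, the share of called genes ran from 35.9% on chromosome 18 to 45.7% on chromosome 16, with median log2 fold changes between -0.05 and 0.04.

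**Figure D5:**
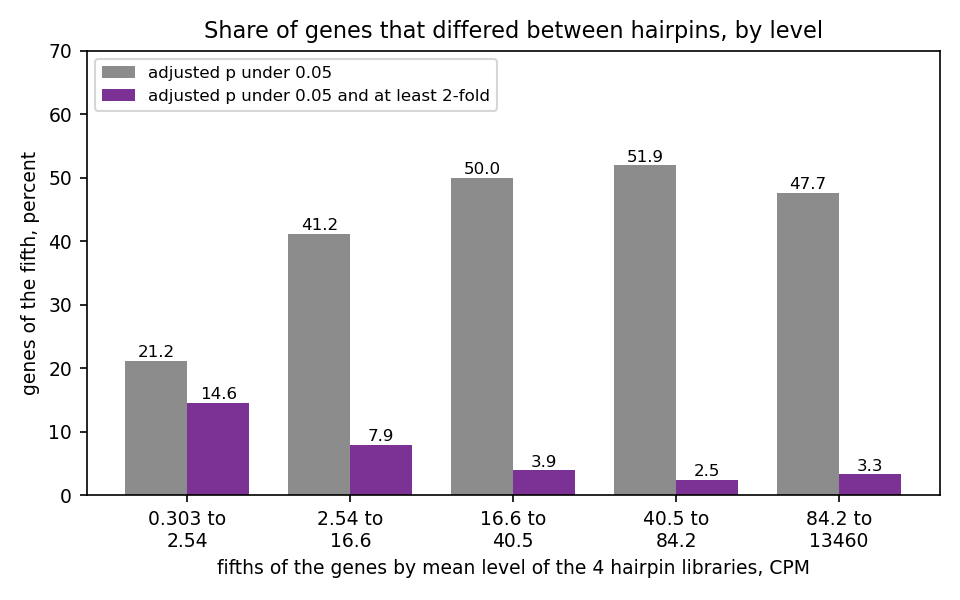
Percent of genes called (grey) and called with a difference of at least 2-fold (purple) in 5 groups of equal size of the genes tested, by mean CPM of the 4 hairpin libraries, in rising order of level; bars start at 0. Calls of any size reached 51.9% in the group next to the highest, where calls of at least 2-fold made up 2.45%, against 14.6% in the lowest group.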

How the data were processed

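RNA was sequenced from polyadenylated transcripts of 8 libraries, per the labels' protocols, and groups were taken from the titles. The authors' deposited gene table holds whole-number counts for 13588 genes; 37 of the genes tested carry an identifier with no symbol. The deposited TPM values, per transcript and gene, are from another table of the authors. RSEM, limma, featureCounts and STAR are named without version or role in the submitters' processing notes, as are mm9 and GRCm38. No source used here gives a strand setting, so overlapping genes on opposite strands may share reads. Gene types and chromosomes come from GENCODE M21 by Ensembl ID (13529 matched).

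Counts of the 4 hairpin libraries were fitted with edgeR 4.0.16 (R 4.3.3): TMM scaling, filterByExpr, quasi-likelihood test, Benjamini-Hochberg adjustment, threshold 0.05. The SE was approximated as the absolute log2 fold change divided by √F. Alternatives used DESeq2 1.42.0 and limma 3.58.1 (voom on counts, and log2(TPM + 1) with a pseudocount of 1). The fit was tested on simulated data. Counts of the replicates of a hairpin differed beyond sampling noise. Intervals and floors cover counting error only.

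Named genes are Ybx1; the 12 highest and 12 lowest called genes without overlap and with a mean TPM of at least 5 in the higher hairpin; the 5 highest and 5 lowest called of at least 500 CPM; up to 3 called members of each list by smallest p; and the 6 of smallest p on opposite sides of shNT. Numbered symbols were passed over (1). Other genes named in the text, further list members included, were chosen after their values were seen. Members, lists and rules were chosen with earlier results of these data known. Motif and marker descriptions carry no test. Results on a few withheld genes are not reported here.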

Additional observations from a re-analysis of the deposited data

Results flagged for a closer look

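Among the 4 shNT libraries, 4 of 25 genes looked at (Ybx1 and the 24 highest and lowest genes between hairpins) had 1 library far from the other 3. The cutoff used flags about 1 in 20 of independent, normally distributed sets of values. CPM values of genes picked as extremes need not be of that kind, and the genes share libraries. The 4 of 25 therefore cannot be set against that rate. Hba-a1 stood at 11.3 CPM in shNT replicate 4, Lrrc51 at 38.1 CPM in shNT replicate 4, Rgs2 at 13.9 CPM in shNT replicate 4 and Lcn2 at 3.27 CPM in shNT replicate 2. The hairpin groups of 2 libraries each are too small to be looked at in this way. These 4 values set the upper end of the shNT range given for the genes. For Rgs2 the sh1Ybx1 libraries, at 16.3 and 16.2 CPM, were above this end, and for Lcn2 they were well above it, at 20.1 and 19.1 CPM.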

How the results depend on the processing

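Against 5620 genes called (2959 higher and 2661 lower in sh1Ybx1, 852 at 2-fold or more), the fit over all 8 libraries called 71 (63 higher, 8 lower, 68 at 2-fold or more) and limma on log2(TPM + 1) called 0. Among genes of at least 5 TPM, 375 were called at 2-fold or more, since fewer genes were tested (9508). Leaving out 1 library in turn gave 4100 to 4971 genes called, 2265 to 2690 higher, 1830 to 2281 lower and 818 to 889 at 2-fold or more, and of the 852 genes 740 to 760 were called each time. The lone library left in a hairpin is then assumed to vary like the other. DESeq2 called 4429 genes and 674 of the 852, and limma-voom called 5611 and all 852. Upper quartile scaling called 5660 (2570 higher, 3090 lower), RLE size factors 5596, and no filter on low counts 5623. Ybx1 was lower in sh1Ybx1 under each of these settings. Its log2 fold change was -0.54 in the 8-library fit and -0.64 in TPM (limma adjusted p 0.238), past the threshold in neither, and -0.67 to -0.37 with a library left out. Of 105 other results on single genes, the mt-Co3 (-0.058) and Cd79a (0.014) fold changes turned sign in TPM, and 88 did not pass the threshold in the 8-library fit; the causes were not tested.

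With the replicate number as a block, the replicate block fit called 6812 genes (3484 higher, 3328 lower, 850 at 2-fold or more; Ybx1 -0.53). The number is shared by label only: over genes, the difference between replicates 1 and 2 correlated at 0.154 between the hairpins, and the description labels number the libraries differently from the titles.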

Other observations

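Hmox1, the heme-degrading stress enzyme, was not picked by any rule and was chosen after its values were seen. It had 253 and 288 CPM in sh1Ybx1, 43.5 and 45.0 CPM in sh2Ybx1 and 170, 91.8, 60.0 and 922 CPM in shNT (log2 fold change 2.62, SE 0.102). It passed the threshold in the 4-library fit and not in the fit over all 8 libraries (edgeR adjusted p 0.372), with shNT replicate 4 the highest of the 8 libraries. Gm13418, annotated as a processed pseudogene and also chosen after its values were seen, was listed at 0 counts in all 4 shNT libraries, while it had 5.83 and 8.15 CPM in sh1Ybx1 and 9.53 and 13.9 CPM in sh2Ybx1 (log2 fold change -0.75, SE 0.170). The deposited TPM of Gm13418 was 0 in all 4 hairpin libraries, so its level is uncertain.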
